A study of Mus musculus with 4 samples.

Results

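Laminins and nidogen were measured in mouse ovarian cancer cells before and after selection for growth in the omentum. The genes were 4 laminin α chains (Lama2, Lama3, Lama4 and Lama5), 3 β chains (Lamb1, Lamb2 and Lamb3), the γ chain Lamc1 and nidogen-1 (Nid1). The rule named genes of the basement membrane and used no measured value, and their probes were found through the RefSeq accession that the array lists for each probe. These were 9 of 22911 gene symbols on the array, read by 17 of its 56605 probes.

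The arrays were 1-color expression arrays hybridized with Cy3-labeled RNA, with 4 arrays from 2 cell lines and 2 arrays per line. ID8G cells are ID8 mouse ovarian cancer cells that were transduced by retrovirus with the GFP vector pMXs-IRES-GFP and sorted for GFP. GO2 cells were derived from ID8G cells by 2 rounds of intraperitoneal injection into female C57BL/6 J mice, each followed by sorting of CD45-GFP+ cells from omental tumors and culture. GFP and the vector were thus shared by both lines, and no drug or dose separated them. The paper gives a medium for ID8 cells (DMEM with fetal bovine serum, insulin, transferrin and selenite) and names none for GO2 cells. GO2 is 1 selected line, and nothing in the labels says that the arrays of a line came from separate cultures, so p-values measure the spread between these samples only, which may be technical. All 4 arrays lay on 1 slide with those of each line side by side, so position on the slide and cell line cannot be told apart.

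Laminins are cross-shaped trimers of an α, a β and a γ chain that assemble into a sheet on the cell surface, and this sheet is the scaffold of the basement membrane. The α chain carries the sites that bind integrins and dystroglycan, whereas nidogen binds the γ1 chain and links the laminin sheet to the type IV collagen network. Ovarian cancer cells spreading in the peritoneal cavity meet laminin in the matrix under the mesothelium, and epithelial tumor cells can also make it themselves.

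GO2 cells had less Lama5 and Nid1 transcript than ID8G cells. With each array scaled to its 75th percentile, the Lamb1 and Lamc1 probes showed no difference beyond the error of the fit. Levels are given as log2 intensities relative to the 75th percentile of each array, and a difference is the GO2 mean minus the ID8G mean of such levels, with its standard error (SE) from the limma fit and a Benjamini-Hochberg adjusted *P* over the 28370 probes tested. A probe was called when the adjusted *P* was below 0.05 and the difference at least 2-fold. Of the 10 laminin and nidogen probes tested (the member probes), for 7 genes, 2 were called lower and 1 was called higher, where 3.34% of all probes tested were called lower and 4.5% were called higher. The median difference was -0.10 over the member probes and -0.02 over all probes tested.

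Across the array 27507 to 28876 probes per array were well above background, and replicate arrays correlated at 0.997 in both lines across all probes. The epithelial and mesothelial markers Krt18, Krt8, Krt19, Msln, Wt1, Upk3b and Lrrn4 were well above background in both lines and Krt7 on no array. Of these 8, 1 was called higher (Upk3b, difference 1.08) and 1 lower (Krt19, difference -1.65). Krt18 (-0.81), Msln (-0.82) and Krt8 (-0.55) were lower by less than 2-fold, each with an adjusted *P* below 0.05, and the list median was -0.55. The list summed to 655 to 662 in ID8G and 373 to 377 in GO2 on the linear scale relative to the 75th percentile of the array. Of 10 fibroblast markers, 5 were called higher in GO2, 0 were called lower, and the summed level was 71.0 to 73.8 in ID8G and 211 to 216 in GO2. Of the 7 probes tested, 6 were called higher, where 4.5% of all probes tested were. Among the 5, Pdgfrb was not well above background on either ID8G array and entered the test through the GO2 arrays alone. The list did not move as one. Dcn, its brightest marker in ID8G cells (6.07 and 6.01), was lower in GO2 by less than 2-fold (difference -0.63, adjusted *P* = 0.00309). These sums add all probes of a list, so that Col1a1, called higher, entered with 2 probes. Fap, Lum, Postn and Thy1 were at background, here meaning not scored as well above background, on every array. Of 6 smooth muscle and pericyte markers, 2 were called higher and the sum was 23.1 to 23.4 in ID8G and 42.2 to 42.5 in GO2, with Des, Myh11 and Rgs5 at background. The probes of Acta2, 1 of these 2, did not move together. Its brightest probe was not called (difference 0.30, adjusted *P* = 0.0212), and a dimmer one was at background in ID8G cells. In limma diffSplice, 2 Acta2 probes differed from the others of the gene (adjusted *P* 0.00141 and 0.000982). With the filter requiring all 4 arrays, 1 gene of this list was called higher. Of 6 leukocyte markers Ptprc, Adgre1 and Lyz2 were at background throughout while Itgam, Csf1r and Cd68 each had a probe well above it on all arrays, 0 were called, and the sum was 21.4 to 24.2 in ID8G and 21.5 to 21.7 in GO2. Of 6 endothelial markers Cdh5, Emcn, Kdr, Tek and Tie1 were at background throughout while Pecam1 was detected, 0 were called, and the sum was 0.175 to 0.207 in ID8G and 0.189 to 0.196 in GO2. Of 5 adipocyte markers 1 was called lower (Fabp4, at least 6.34-fold and at least 1.81-fold on its probes, with GO2 at background), Adipoq and Plin1 were at background throughout, and the sum was 0.987 to 1.07 in ID8G and 0.496 to 0.628 in GO2. The fibroblast, smooth muscle, epithelial and adipocyte sums thus moved with cell line, and their part in the laminin and nidogen differences was not tested.

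The remaining 7 member probes were not well above background on any array and were not tested. Both probes of Lama3 and both of Lamb3, which are chains of the epithelial laminin of hemidesmosomes, were among them, as were 1 probe each of Lama2, Lama4 and Nid1. Their levels lay between -6.16 and -4.31, below the lowest signal scored as well above background on these arrays (-3.85 to -3.53). Lama3 and Lamb3 were thus not detectable at this signal, which does not show that they were absent.

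**Figure D1:**
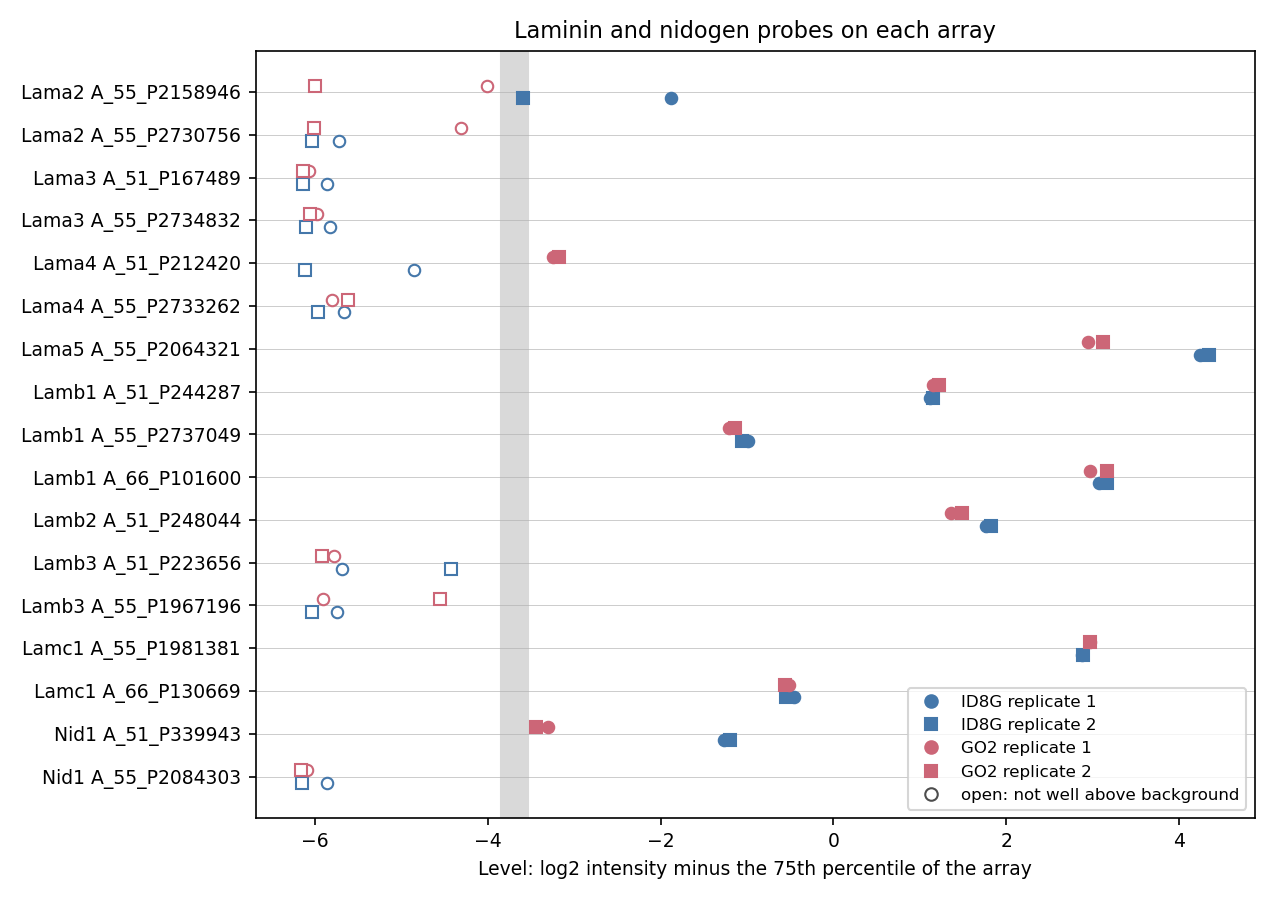
Level of each of the 17 laminin and nidogen probes (log2, relative to the 75th percentile, x axis) on the 4 arrays, with ID8G in blue, GO2 in red, replicates as circles and squares, open symbols for readings not well above background and a gray band for the range of the lowest well-above-background signal of the arrays. Lama5 and Nid1 were lower on both GO2 arrays, Lamb1 and Lamc1 differed little between the lines, and 7 probes were open on every array.

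The promoter letters of the called-lower genes are shown because Lama5 and Nid1 moved in the same direction. RefSeq windows of 250 bases before a transcript start (GRCm38.p6) were found for 6 members, and not for Lama3, Lama4 and Lamc1. The stretches below were ended where the annotated gene begins, and capitals mark the GC box, GGGCGG on either strand (CCGCCC when read on the other strand). For Lama5 the stretch is chr2:180225905-180226109 on the minus strand (205 bases), and for Nid1 it is chr13:13437352-13437601 on the plus strand (250 bases), both written 5′ to 3′.
Lama5: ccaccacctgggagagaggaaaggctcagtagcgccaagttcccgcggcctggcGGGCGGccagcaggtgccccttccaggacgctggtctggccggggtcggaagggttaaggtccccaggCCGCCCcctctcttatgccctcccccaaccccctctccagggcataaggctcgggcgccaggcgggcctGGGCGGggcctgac
Nid1: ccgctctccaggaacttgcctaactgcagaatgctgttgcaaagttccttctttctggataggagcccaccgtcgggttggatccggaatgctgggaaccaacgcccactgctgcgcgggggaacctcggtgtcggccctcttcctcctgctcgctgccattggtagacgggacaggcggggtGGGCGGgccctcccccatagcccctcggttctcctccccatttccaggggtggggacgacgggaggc
The Lama5 stretch held 3 GC boxes and the Nid1 stretch held 1.

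In the full windows, GC content was 72.4% for Lama5 and 64.4% for Nid1, against a median of 52.4% over all 32851 windows. The GC box occurred 4 times in the Lama5 window, 1 time in that of Nid1 and 2 times in that of Lamb1, a gene that was not called, and 32.7% of all windows held it. The windows of Lama2, Lamb2 and Lamb3 held 0. Only 103 bases of the Lamb1 window lay before the annotated gene, and they held 0 GC boxes. For Lama2 and Lamb3, 1 and 0 bases lay before it. The CCAAT box (CCAAT, or ATTGG on the other strand) occurred 1 time each in the Nid1 and Lamb1 windows and in 33.8% of all windows. No member window held TATAAA (12.4% of all windows), the AP-1 letters TGANTCA (6.7%) or the E box CACGTG (6.0%), searched on both strands. These are matches of letters and not sites of binding.

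Of the 4 α chains chosen here, Lama5 alone was well above background in every sample. It encodes the α5 chain, the broadly expressed laminin α chain of epithelial and endothelial basement membranes in the adult. The Lama5 level was 4.24 and 4.35 in replicates 1 and 2 of ID8G cells, and 2.94 and 3.12 in those of GO2 cells. Both GO2 arrays were lower than both ID8G arrays, and the gap between the lines exceeded the gap between replicates many times over. The difference was -1.27 (SE 0.09, 95% interval -1.51 to -1.03, adjusted *P* = 0.00181), so that GO2 cells held 41.5% of the ID8G level. In bulk RNA such as this, fewer cells with a transcript and less transcript per cell cannot be told apart. Of all probes tested, 2.43% had a lower difference.

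Lama4, whose α4 chain belongs to laminins of vessels, muscle and mesenchymal cells, was called higher at the limit of detection. Its brighter probe read -4.86 and -6.11 in ID8G cells and -3.24 and -3.18 in GO2 cells. The ID8G readings were not well above background on either array, the GO2 readings were on both, and the groups did not overlap. The fitted difference was 2.28 (SE 0.44, adjusted *P* = 0.0239), and since the ID8G level was only bounded, Lama4 was at least 1.38-fold higher in GO2. The probe entered the test through the GO2 arrays alone. The call was lost when GO2 replicate 1 (adjusted *P* = 0.0869) or GO2 replicate 2 (adjusted *P* = 0.0907) was left out, and with normexp background correction the difference was 0.65, below 2-fold.

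Lama2, whose α2 chain is that of the muscle basement membrane, was detected in ID8G cells only and did not pass the test. Its level was -1.88 and -3.59 in ID8G cells, then -4.005 and -6.00 in GO2 cells. ID8G replicate 2 lay nearer to GO2 replicate 1 than to its own replicate, although the groups did not overlap. The difference was -2.27 with an SE of 0.92 and an interval from -4.78 to 0.25 (adjusted *P* = 0.129). With the GO2 readings at background, Lama2 was at least 2.13-fold lower in GO2 by the means, a bound that takes no account of the spread between replicates. The probe entered the test through the ID8G arrays alone. The adjusted *P* was 0.00559 with spike-in scaling, 0.0288 with an intensity trend in the variance and 0.00707 with the replicate number as a block, all below 0.05. It was 0.320 with no filter on dim probes and 0.386 with the methods' t-test. With normexp background correction the difference was -0.71, and with 1 array left out it ran from -3.26 to -1.27.

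The β chains showed small differences or none that passed. Lamb1 encodes the β1 chain, the partner in most laminins of this family, and was read by 3 probes, each well above background throughout. The brightest stood at 3.08 and 3.17 in ID8G cells and at 2.97 and 3.17 in GO2 cells, where the groups overlapped. The middle probe read 1.12 and 1.15 in ID8G cells and 1.16 and 1.22 in GO2 cells, all within 0.11 of one another. The dimmest read -0.99 and -1.06 in ID8G cells and -1.21 and -1.14 in GO2 cells, slightly lower in GO2 without overlap. The differences were -0.05, 0.06 and -0.15, and adjusted *P* values were 0.662, 0.462 and 0.125. With spike-in scaling the dimmest probe differed by -0.35 (adjusted *P* = 0.0420), below 2-fold. The widest of the 3 intervals ran from -0.30 to 0.19, and all 3 left out a 2-fold change in either direction. None of these probes differed from the others of Lamb1 in the test of unequal change within a gene (adjusted *P* 0.362 to 0.973), for which 6.45% of 10811 probes passed.

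Lamb2, encoding the β2 chain known from kidney and the neuromuscular junction, was lower in GO2 by less than 2-fold. Its probe read 1.76 and 1.82 in ID8G cells and 1.36 and 1.49 in GO2 cells, with both GO2 arrays below both ID8G arrays. The difference of -0.37 (SE 0.07, adjusted *P* = 0.0241) left GO2 at 77.6% of the ID8G level. The adjusted *P* was 0.135 with no filter on dim probes and 0.239 with the methods' t-test. With 1 array left out the difference ran from -0.43 to -0.30. By the adjusted *P* alone, 1 member probe was higher and 3 were lower, Lamb2 being the one added, where 17% of all probes tested were higher and 18.9% were lower.

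Lamc1 encodes the γ1 chain that binds nidogen. The brighter of its probes read 2.88 and 2.88 in ID8G cells and 2.97 and 2.97 in GO2 cells, so that the GO2 arrays were above the ID8G arrays by a margin of 0.08 to 0.10. The dimmer probe read -0.46 and -0.55 in ID8G cells and -0.51 and -0.56 in GO2 cells, with overlap. Neither difference passed (0.09, adjusted *P* = 0.234, and -0.04, adjusted *P* = 0.668), and the intervals were -0.05 to 0.22 and -0.20 to 0.13. The signs of the positive Lamb1 and Lamc1 differences turned with spike-in scaling, to -0.15 and -0.12, a scaling that moved the median of all probes tested from -0.02 to -0.23.

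Nidogen-1, the linker between laminin and type IV collagen, had the lowest adjusted *P* of the member probes. The Nid1 level was -1.26 and -1.20 in ID8G cells, against -3.30 and -3.45 in GO2 cells. All 4 readings were well above background, and both GO2 arrays lay about as far below the ID8G arrays. The difference was -2.14 (SE 0.07, 95% interval -2.35 to -1.94, adjusted *P* = 0.000412), leaving 22.6% of the ID8G level, and 0.821% of all probes tested had a lower difference. The GO2 readings stood close to the lowest signal scored as well above background, and with normexp background correction the difference was -1.48, still called. The other Nid1 probe read between -6.16 and -5.86 and gave no second reading of the gene. An exact permutation test of 2 against 2 arrays cannot give a *P* below 0.333.

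**Figure D2:**
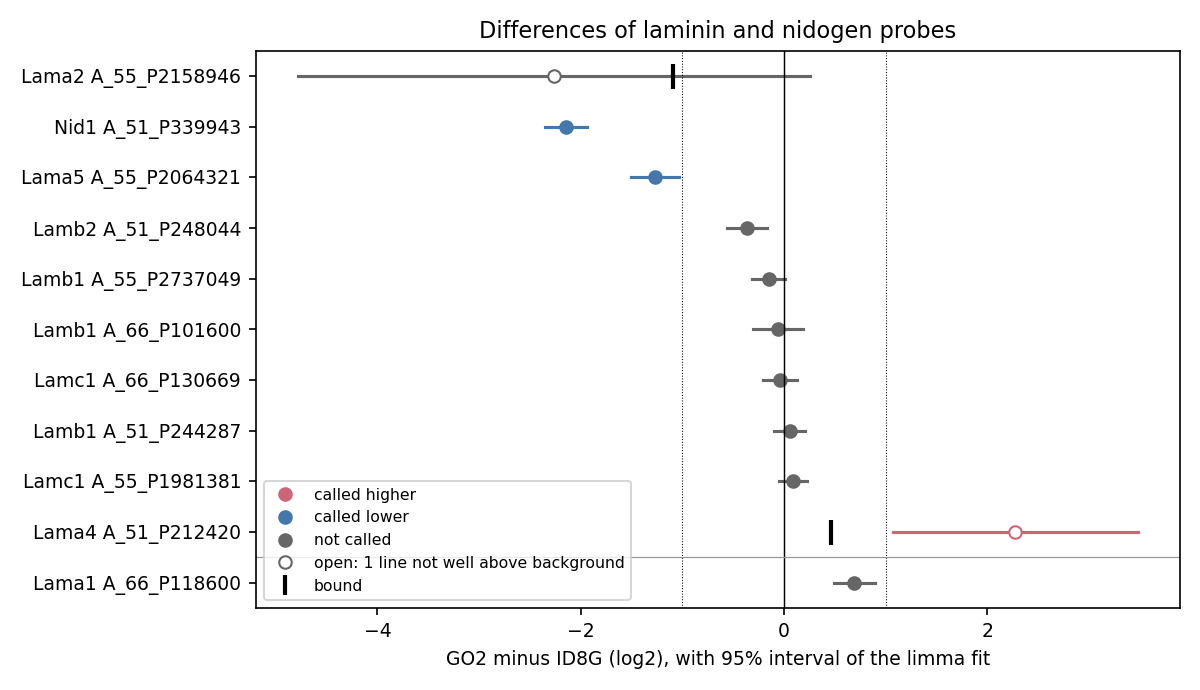
Difference of GO2 minus ID8G (log2, x axis) with its 95% interval for the 10 laminin and nidogen probes tested and, below the gray line, for Lama1; dotted lines mark 2-fold, open points have 1 line not well above background and black bars give the bound. The intervals of Nid1 (-2.35 to -1.94) and Lama5 (-1.51 to -1.03) lay wholly beyond 2-fold lower, and those of Lamb1 and Lamc1 crossed 0.

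**Figure D3:**
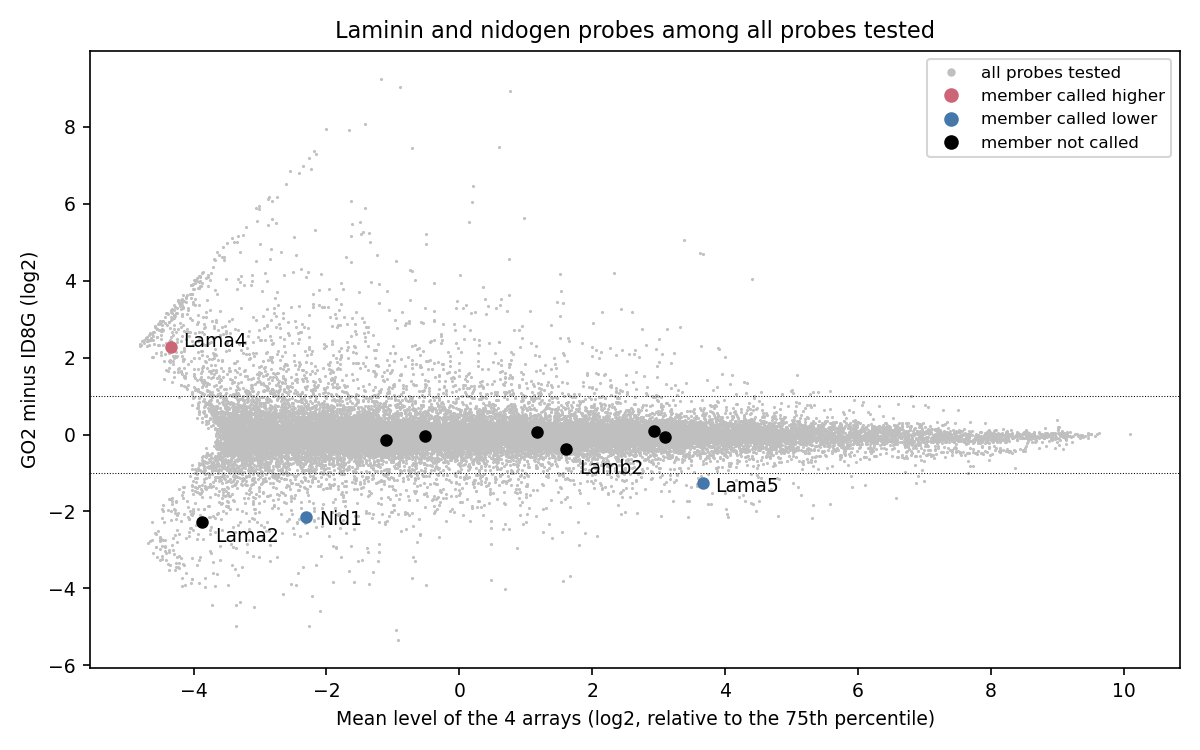
Difference of GO2 minus ID8G (log2, y axis) against the mean level of the 4 arrays (log2 relative to the 75th percentile, x axis) for all 28370 probes tested in gray, with member probes called higher in red, called lower in blue and not called in black. Lama5 lay at high signal, Nid1 at low signal, and Lama4 and Lama2 at the dim edge where 1 line was at background.

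Outside the chosen genes, Lama1, the α1 chain of early embryonic laminin, read 1.31 and 1.27 in ID8G cells and 1.90 and 2.06 in GO2 cells. It was higher in GO2 by 0.69 (SE 0.07, adjusted *P* = 0.00559), the direction opposite to that of Lama5, and less than 2-fold, so that it was not called. Lamc3 and Nid2 were at background on all arrays.

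Other structural genes of basement membranes were examined as a list of 23, of which 22 were on the array and 12 were tested. Of these, 2 genes were called higher and 0 lower. By probe, 2 of the 15 tested were called higher and 0 lower, against 4.5% and 3.34% of all probes tested. Fras1, of the complex that anchors embryonic epithelium, read -4.49 and -4.13 in ID8G cells and -2.72 and -3.04 in GO2 cells. Smoc2, a calcium-binding matrix protein related to Sparc, read -4.31 and -5.25 in ID8G cells and -3.04 and -3.10 in GO2 cells. Both were at background in ID8G cells and entered the test through the GO2 arrays alone, and with the filter requiring all 4 arrays 0 genes of the list were called. GO2 was at least 1.74-fold higher for Fras1 and at least 1.52-fold higher for Smoc2. Without GO2 replicate 1 or GO2 replicate 2 the Smoc2 call was lost (adjusted *P* = 0.0920 and 0.0864). With normexp neither gene reached 2-fold (0.57 for Fras1 and 0.75 for Smoc2).

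The type IV collagen chains that were tested, of the network to which nidogen ties laminin, showed differences below 2-fold. Col4a3 and Col4a4 were at background on all arrays and were not tested. Col4a1 differed by -0.37 (adjusted *P* = 0.0225), Col4a2 by -0.29 (adjusted *P* = 0.0176) and Col4a6 by -0.23 (adjusted *P* = 0.0355). The smallest differences of the list were those of Col4a5 (-0.11 and -0.15 on its probes, adjusted *P* 0.191 and 0.156), Tinagl1 (0.13, adjusted *P* = 0.119) and Col4a6. Perlecan (Hspg2), the heparan sulfate proteoglycan of the sheet, differed by 0.24 and 0.39 on its probes and did not pass (adjusted *P* 0.0950 and 0.0926). By the adjusted *P* alone, 6 of the 15 probes tested of this list were higher and 4 were lower. Of all probes tested, 17% were higher and 18.9% were lower by that rule. The list median was 0.24, against -0.02 over all probes tested.

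Laminin receptors were 13 genes, of which 11 were tested, and 2 were called lower and 1 higher. Of the 18 probes tested, 4 were called lower, 3 of them for Itga6, and 1 higher. Of all probes tested, 3.34% were called lower and 4.5% higher. By the adjusted *P* alone, 11 of these probes were lower and 1 was higher, against 18.9% and 17% of all probes tested. Itga6, the α6 chain of laminin-binding integrins, was lower on each of its 3 probes. Its brightest probe read 5.43 and 5.49 in ID8G cells and 3.41 and 3.51 in GO2 cells, with the 95% interval of the difference from -2.17 to -1.83 (adjusted *P* = 0.000325). The other probes differed by -2.14 and -3.18, and the dimmest was at background in GO2, so that its level was at least 2.84-fold lower.

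Bcam, the Lutheran glycoprotein that binds the laminin α5 chain, read 0.87 and 0.91 in ID8G cells and -0.24 and -0.16 in GO2 cells. The groups did not overlap, and the difference was -1.09 (SE 0.06, adjusted *P* = 0.000976), just beyond 2-fold, and -0.998 with normexp, just short of it. Bcam and Lama5, receptor chain and ligand, were thus both lower in GO2. Sdc2, a syndecan with heparan sulfate chains, was the receptor called higher, at -0.27 and -0.29 in ID8G cells and 1.51 and 1.55 in GO2 cells (difference 1.81, SE 0.05, adjusted *P* = 0.000303). The smallest differences were those of dystroglycan (Dag1, -0.04), Rpsa (-0.07 and -0.17), whose ribosomal transcript has near-identical copies in the genome and is uncertain for that reason, and Sdc4 (-0.07). Below 2-fold, Itgb1, the β1 integrin chain, differed by -0.30 and -0.39 and Itga3 by -0.53 and -0.73, each with an adjusted *P* below 0.05. The list median was -0.33.

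Enzymes that build the laminin-binding sugar of dystroglycan were 13 genes, of which 12 were tested. By probe, 1 of the 18 tested was called higher and 0 lower, against 4.5% and 3.34% of all probes tested. Pomgnt2, which acts early in that chain, was the 1 gene called higher, and 0 were called lower. It read -0.64 and -0.50 in ID8G cells and 0.93 and 0.92 in GO2 cells, clear of overlap (difference 1.498, SE 0.07, adjusted *P* = 0.000685). Small differences were those of Pomk (-0.03, adjusted *P* = 0.694) and Rxylt1 (-0.05, adjusted *P* = 0.764). The list median was 0.06.

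Enzymes and factors that cut or assemble basement membranes were 8 genes, of which 7 were tested, with 2 called higher and 0 lower. By probe, 3 of the 11 tested were called higher and 0 lower, against 4.5% and 3.34% of all probes tested. Mmp14, the membrane-anchored matrix metalloprotease, read -2.64 and -2.73 in ID8G cells and -0.14 and -0.18 in GO2 cells, a difference of 2.53 (SE 0.06, adjusted *P* = 0.000242). Timp3, the metalloprotease inhibitor bound to matrix, read 1.85 and 1.98 in ID8G cells and 4.77 and 4.67 in GO2 cells on one probe, and its probes differed by 2.81 and 2.76 (adjusted *P* 0.000286 and 0.000189). Protease and inhibitor were thus both higher in GO2, with no overlap between lines. The smallest differences were those of 2 of the 3 Bmp1 probes (0.08 and 0.16), with the third at 0.85, Timp2 (-0.09 and 0.32) and Tll1 (-0.51). The list median was 0.72.

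**Figure D4:**
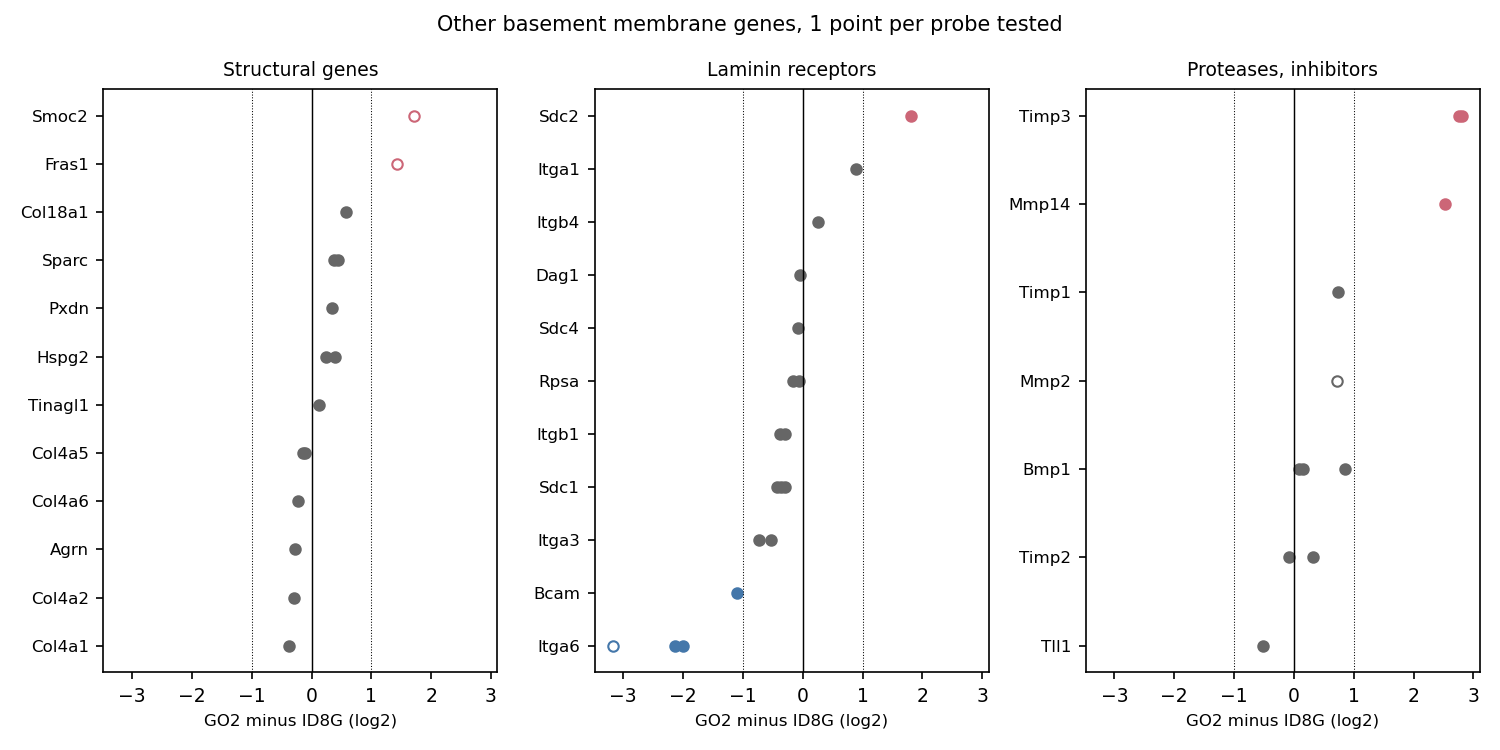
Difference of GO2 minus ID8G (log2, x axes) for the tested probes of 3 lists (other structural genes, laminin receptors, and enzymes and factors that cut or assemble the sheet), 1 point per probe and 1 row per gene, with probes called higher in red, called lower in blue and not called in gray, open points where 1 line was not well above background and dotted lines at 2-fold. Itga6 and Bcam were the receptor genes called lower, and Timp3, Mmp14, Sdc2, Smoc2 and Fras1 were called higher.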

How the data were processed

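RNA of ID8G and GO2 cells was hybridized as Cy3-labeled cRNA to Agilent mouse arrays, 2 per cell line. The authors deposited scanner files of intensity values from Feature Extraction 11.5.1.1, in which the processed signal had its background subtracted, per the file headers, with an array design on mm9. They also deposited a value table on the log2 scale, scaled and centered, which was used as an alternative. It was compared with the scanner values after each probe was centered across the arrays. The table then matched the log2 scanner values minus the 75th percentile of each array to within 0.0012 for probes with 1 spot. Over all probes the largest difference was 0.38. The number of arrays limits the precision.

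Control spots and outlier spots (132 to 195 per array) were left out, 0 probes were saturated, spots of a probe were averaged, and the 75th percentile (627 to 675 intensity units) was taken over probes before log2. A probe was tested if both arrays of 1 line or of the other scored it well above background (28370 probes). The comparison of GO2 with ID8G used lmFit and eBayes of limma 3.58.1 in R 4.3.3 with no covariate. Where neither array of a line scored a probe as well above background, a bound was computed from the lowest signal well above background on each array. Gene names came from RefSeq accessions (GRCm38.p6 table), which matched 32994 of 56605 probes. On simulated data for this comparison (28344 probes), 84 of 100 probes changed by 2 on the log2 scale and 78 of 100 changed by 1.5 were recovered, with 1 false call. The spreads of the real probes were dealt out at random there, which kept no link between signal and spread. Far fewer probes were changed than passed the adjusted *P* in the real data. These rates are thus not known to hold for probes near background, such as those of Lama4 and Lama2.

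Members and gene lists were chosen with earlier results of these data known. All member probes are accounted for, and from each other list the called genes (at most 6) and the 3 genes with the smallest differences are named, apart from some items that are not reported here. The genes named beyond these, which are Lama1, Col4a1, Col4a2, Hspg2, Itgb1 and Itga3, were chosen after their values were seen. So were the markers given with a difference though not called, which are Krt8, Krt18, Msln and Dcn, and the uncalled probe of Acta2. Deviations of same-numbered arrays correlated at 0.03, so they shared little. This cannot show whether those arrays were prepared as pairs, and the labels do not say. Alternatives covered background correction, scaling, filters, variance model, the methods' t-test, the replicate block, the value table, outlier spots, the call rule, 1 probe per gene and each array left out, where the lone array of a line was assumed to vary like the other line.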

Additional observations from a re-analysis of the deposited data

How the results depend on the processing

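Of 148 values of the member probes under the alternatives, 134 kept their direction and side of the call rule, 7 lost the call, 3 gained it and 4 changed sign, and of 953 values of the pathway probes 918 kept both, 17 lost the call and 18 changed sign, each of the sign changes in a probe that was not called. With spike-in scaling the difference was -0.147 for Lamb1 and -0.117 for Lamc1 on probes positive otherwise, -0.074 for Tinagl1, and -0.047 and -0.12 for Bmp1. With normexp it was 0.0106 for Dag1 and 0.00428 for Pomk. With 1 array left out the difference ran from -0.152 to 0.0431 on the brightest Lamb1 probe, from -0.082 to 0.00878 on the dimmer Lamc1 probe, from -0.0635 to 0.00312 for Pomk and from -0.192 to 0.0968 for Rxylt1, positive without GO2 replicate 1, without ID8G replicate 1, without GO2 replicate 2 and without ID8G replicate 1 in that order. The Lama4 call was lost, leaving 0 member probes higher, with normexp, without the filter on dim probes (adjusted *P* = 0.102), with the filter requiring all 4 arrays, which left Lama4 untested, and with the methods' t-test, and 0 to 1 were higher when 1 array was left out. The methods' t-test is the Welch test that the paper names for comparing 2 groups in general. The paper does not say that it was applied to the arrays. It takes the spread of each probe from 2 arrays per line without pooling over probes. Adjusted by Benjamini-Hochberg, it called 0 member probes lower and 0 pathway genes in either direction. Across the array it called 0 probes higher and 3 lower, with adjusted *P* of 0.147 for Lama5 and 0.137 for Nid1. Across the array 818 probes were higher and 517 lower with normexp, 666 and 606 with the filter requiring all 4 arrays, 1428 were lower with spike-in scaling, and 4834 were higher and 5348 lower with no minimum fold, where 17 pathway genes were higher and 12 lower. Pathway genes called lower numbered 1 with normexp, which lost Bcam. Probes differing from others of their gene numbered 697, and 318 to 354 when 1 array was left out, the cause of which was not tested.

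With the replicate block, 1 member probe was called higher and 3 lower, the added one being Lama2, and 1251 probes were higher and 936 lower across the array. Lama5 stayed between -1.47 and -1.26 under the other settings and between -1.35 and -1.18 with 1 array left out, and Nid1 between -2.35 and -1.48 and between -2.22 and -2.07. The 7 spike-ins well above background differed by 0.15 to 0.27 between the lines. The slide could not be a block because there was 1 slide. Signal near background limits what can be said of Lama2, Lama3, Lama4 and Lamb3.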
